A study of Mus musculus with 23 samples.

Results

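The genes described here encode the membrane carriers of 10 solute carrier (SLC) groups that move sugars, short-chain and other organic acids, organic ions, nucleosides, zinc and other metals. They were chosen by name: every probe set whose platform gene symbol begins with Slc2a, Slc5a, Slc16a, Slc22a, Slc28a, Slc29a, Slc30a, Slc37a, Slc39a or Slco. That rule found 182 of the 45101 probe sets of the array. Of these, 180 carried 1 symbol and named 107 genes, among 18193 genes with such a probe set. The 2 probe sets with several symbols are counted but not named. Of the 107 genes, 65 had a probe set bright enough to be tested (above the median of its own array on at least 5 of the 23 arrays), and 42 had none. One of the 65, Slc2a4rg-ps, is a pseudogene by its name and not a carrier, which leaves 64 measured carriers.

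The study gave Dextran Sodium Sulphate (DSS), a sulfated sugar polymer toxic to the lining of the colon, to C57BL/6J mice, a common inbred strain, at 12 to 14 weeks of age. Colon was taken from separate cohorts at day 0 without DSS (5 mice) and after 2, 4 and 6 days of 3% DSS in the drinking water (6 mice each). Total RNA of each mouse was hybridized to 1 Affymetrix Mouse Genome 430 2.0 array, on which a probe set of short oligonucleotides reports a transcript as a signal intensity. The labels name no other treatment, genotype or control solution, and do not give the stretch of colon.

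The colon absorbs what fermentation leaves. Butyrate and other short-chain acids, the main fuel of its surface cells, enter through proton-coupled carriers of the Slc16 family and sodium-coupled carriers of the Slc5 family. Glucose enters cells by facilitated carriers (Slc2) or with sodium (Slc5), the Slc37 family exchanges sugar phosphates across the membrane of the endoplasmic reticulum, and zinc enters the cytosol by Slc39 (ZIP) carriers and leaves it by Slc30 (ZnT) carriers.

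All 12 colonocyte markers were measured, and their summed signal lay between 137788 and 177899 at day 6, against 177172 to 190700 at day 0. None of the 12 was higher and 4 were lower at day 6. All 8 macrophage and all 6 fibroblast markers were higher at day 6, as were the 3 measured neutrophil markers of 8, whose summed signal was 1925 to 12205 at day 6 and 156 to 399 at day 0. On day 0 mouse 1, 3, 4 and 5 that sum was 156 to 217, against array medians of 98.1 to 113. The 3 neutrophil markers thus did not all lie above the median there, and may have passed the filter in part through day 6. Markers of skeletal muscle and squamous epithelium were present on most arrays and were low on day 2 mouse 8 and day 4 mouse 8. The squamous sum was 5543 to 9287 at day 0 and 16684 to 36108.5 at day 6, where 2 of the 6 markers were higher. The median skeletal muscle sum was 11944.5, 17989, 32760.3 and 21893.9 at days 0, 2, 4 and 6, with 0 of 7 markers called at day 6. Also at day 6, 4 of 6 endothelial and 3 of 4 measured enteric neuron markers were higher, and 2 of 6 goblet cell markers were lower. Pancreatic markers stood out on day 2 mouse 6 (summed signal 76948) and day 6 mouse 1 (18254), and summed to 396 to 1579.9 on the other 21 arrays. The signal of the hybridization controls, transcripts added to each sample, was 11.35 to 11.51 (log2) at day 0, 11.15 to 11.46 at day 2, 10.83 to 11.15 at day 4 and 10.68 to 11.14 at day 6. The ratio of 3′ to 5′ signal of the actin and Gapdh control probe sets, a measure of RNA integrity, moved with the day too. For actin it was 0.40 to 0.45 (log2) at day 0, 0.39 to 0.56 at day 2, 0.53 to 0.70 at day 4 and 0.48 to 0.59 at day 6. For Gapdh it was -0.46 to -0.33, -0.38 to -0.28, -0.27 to -0.18 and -0.30 to -0.19 at these days. Neither ratio overlapped with day 0 at day 4 or day 6. In whole tissue, fewer cells of a type and less RNA per cell cannot be told apart. The part of these differences in the results below was not tested, beyond the values given beside them.

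At day 2 none of the 65 genes differed from day 0 (limma, adjusted p of 0.05 or less over all 12463 genes tested), and 0.0802% of all genes did (0.016% higher and 0.0642% lower). At an unadjusted p under 0.05, 7 of the 65 and 1595 of all genes stood out at day 2. At day 4, 7 of the 65 were higher (10.8%, against 12.1% of all genes) and 6 were lower (9.23%, against 4.32% of all genes). At day 6, 12 were higher (18.5%, against 18.1% of all genes) and 17 were lower (26.2%, against 14.3% of all genes), together 44.6% of the 65, against 32.4% of all genes. Of the cell type markers, all 4 measured of enteric neurons, 5 of 6 of endothelium, 3 of 5 of smooth muscle, 3 of 8 of macrophages and 2 of 6 of fibroblasts were higher at day 4, and 4 of 12 of colonocytes and 1 of 6 of goblet cells were lower. The lower carrier count at day 4 was 3 when day 0 mouse 3, or mouse 3 or 4 of day 4, was left out. The median log2 change of the 65 genes at day 6 was -0.14, against 0.02 over all genes. The 3 comparisons share the 5 arrays of day 0.

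At day 6 the called changes were not of 1 sign within a substrate class, except for nucleoside carriers, of which 1 gene was called. At day 6, carriers of sugars and polyols numbered 4 higher and 6 lower of 15 (median log2 change -0.15). Monocarboxylate carriers had 1 higher and 2 lower of 6 (median -0.39), and carriers of other small solutes 1 higher and 3 lower of 7 (median -0.35). Of 12 organic ion carriers 2 were higher and 1 was lower (median 0.06), of 4 nucleoside carriers 1 was lower (median -0.19), and of 20 carriers of zinc and other metals 4 were higher and 4 were lower (median -0.05). Without overlap between the arrays of both days, 6 genes lay above and 4 below day 0 at day 4 (7.61% and 2.45% of all genes), and 6 above and 8 below at day 6 (9.94% and 6.64% of all genes). When the hybridization control level of each array entered the fit as a covariate, 0 carrier genes were higher and 4 lower at day 6, and 0 of either direction at day 4. The carriers Slc37a2, Slc5a1 and Slc5a8 were among those 4, with log2 changes of -2.74, -0.82 and -0.87.

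**Figure D1:**
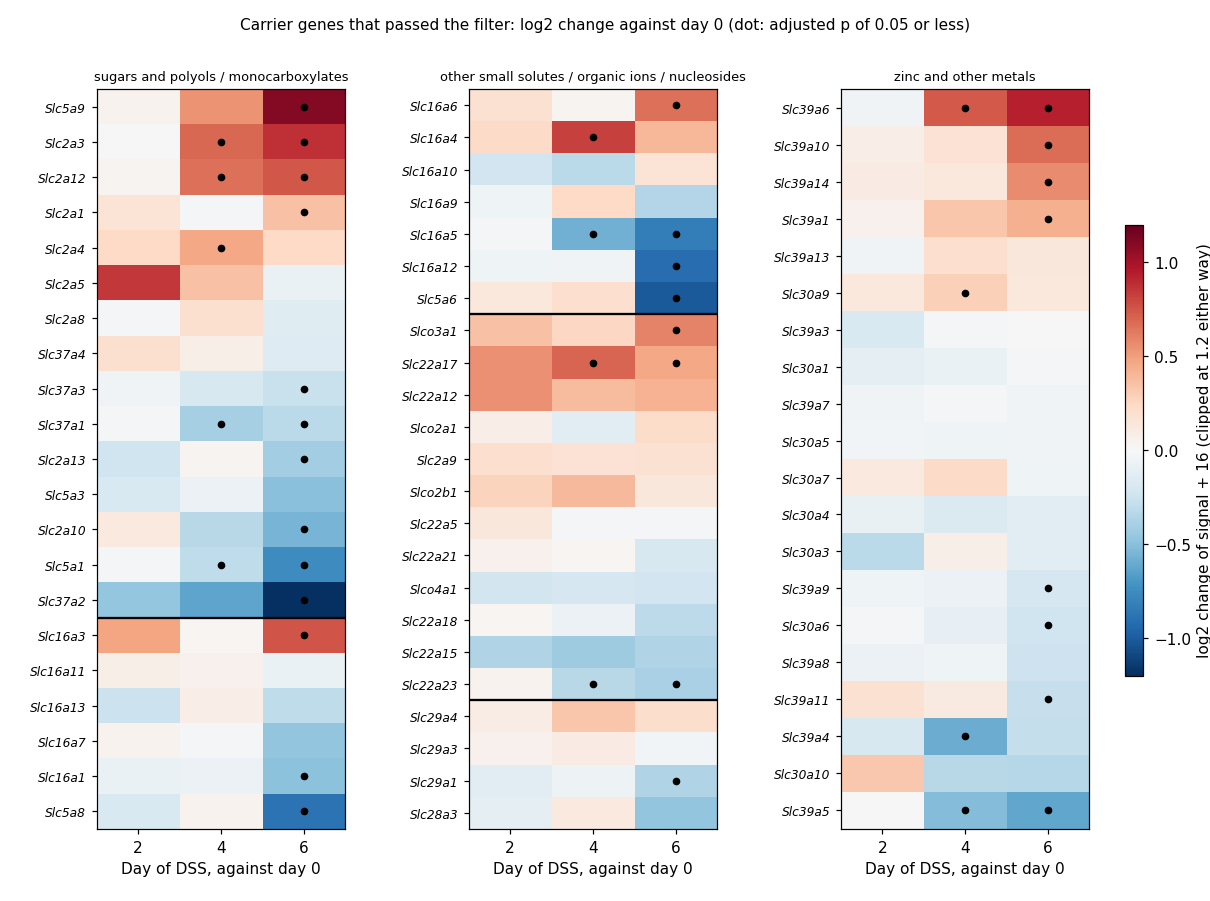
Log2 change of signal + 16 against day 0 for the 64 measured carriers, by substrate class, with 1 row per gene and 1 column each for days 2, 4 and 6. Red is higher and blue is lower than at day 0, colours stop at 1.2 in either direction, and a dot marks an adjusted p of 0.05 or less: dots number 0 at day 2, 13 at day 4 and 29 at day 6.

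Values are given below as signal intensities, for each of the 5 arrays at day 0 and as the median with the lowest and highest of 6 arrays at days 2, 4 and 6. Changes are differences of means of log2(signal + 16) with their standard error, and a fold is taken on that scale, which understates the change of dim genes.

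Among sugar and polyol carriers, Slc37a2 showed the largest change of the 65 genes. It averaged 496 ± 293 at day 6 and 1989.6 ± 485 at day 0 (SD, n = 6 and 5). The sodium-glucose cotransporters moved in opposite directions: Slc5a9 (SGLT4) was 2.15-fold of its day 0 level at day 6, and Slc5a1 (SGLT1) was 0.594-fold. Slc2a3 (GLUT3), the glucose carrier of neurons and leukocytes, and Slc2a12 (GLUT12) were higher from day 4.

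Slc37a2 had 1338, 2295, 2457, 1614 and 2244 at day 0, and medians of 1427 (1057 to 1826) at day 2, 1526 (430.1 to 1779.9) at day 4 and 363 (258 to 999) at day 6. All 6 arrays of day 6 lay below all 5 of day 0, and the arrays of day 4 overlapped with day 0 and included 1 low array, day 4 mouse 4. That array had the lowest summed signal of colonocytes (132011) and of goblet cells (71080.5) of all 23 arrays. The log2 change was -2.10 ± 0.32 (adjusted p = 2.73e-05) at day 6, and -1.47 ± 0.31 between day 6 and day 4 (adjusted p = 0.00134). Its relatives changed less at day 6. Slc37a1 was lower at day 4 (-0.40 ± 0.10, adjusted p = 0.00995), a call kept when any 1 array was left out, and at day 6 (-0.33 ± 0.10, adjusted p = 0.0173). Slc37a3 was at -0.27 ± 0.10 (adjusted p = 0.0407) at day 6, and its second probe set did not pass (-0.23, adjusted p = 0.210). Without day 0 mouse 3, Slc37a1 no longer passed at day 6 (adjusted p = 0.0652). Slc37a3 no longer passed when any 1 of 8 arrays was left out (mouse 1, 2, 4 or 5 of day 0, mouse 1, 4, 21 or 29 of day 6), with adjusted p up to 0.0949. Slc37a4, the glucose-6-phosphate translocase, did not pass (-0.15 ± 0.10, adjusted p = 0.280).

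Slc5a1 had 3093, 3414, 3538, 3369 and 3217 at day 0, and medians of 3280.0 (3017 to 3664) at day 2, 2636 (2462 to 3019.5) at day 4 and 1874 (1555 to 2539) at day 6. The arrays of day 6 and those of day 4 all lay below those of day 0. Its log2 change was -0.30 ± 0.10 (adjusted p = 0.0372) at day 4 and -0.75 ± 0.10 (adjusted p = 4.52e-06) at day 6. The call at day 4 was lost when any 1 of 7 arrays was left out (mouse 2, 3, 4 or 5 of day 0, mouse 1, 3 or 4 of day 4), with an adjusted p of 0.0872 without day 0 mouse 3. A second probe set of Slc5a1 changed by -0.62 ± 0.09 at day 6 (adjusted p = 2.65e-05 over probe sets) but did not pass at day 4 (-0.11 ± 0.09, adjusted p = 0.430), and the mean of both lost the day 4 call (-0.21, adjusted p = 0.111).

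Slc5a9 had 139.5, 134, 223, 97.5 and 171 at day 0, and medians of 159.9 (93.2 to 228) at day 2, 206 (142 to 412) at day 4 and 339 (233 to 479) at day 6. All arrays of day 6 lay above those of day 0, and those of day 4 overlapped with both. It changed by 0.54 ± 0.25 (adjusted p = 0.141) at day 4 and 1.10 ± 0.25 (adjusted p = 0.00141) at day 6. Its 3 other probe sets differed in call. One was higher on both days, by 1.06 ± 0.22 at day 4 (adjusted p = 0.00152) and 1.37 ± 0.22 at day 6 (adjusted p = 4.30e-05). The other two did not pass against day 0, at -0.25 ± 0.39 (adjusted p = 0.702) and 0.19 ± 0.29 (adjusted p = 0.700) at day 4, and 0.81 ± 0.39 (adjusted p = 0.120) and 0.48 ± 0.29 (adjusted p = 0.220) at day 6.

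Slc2a3 had 335, 299, 302, 316 and 269 at day 0, and medians of 300.01 (246 to 410.2) at day 2, 493 (403 to 648) at day 4 and 545 (434 to 813) at day 6. Every array of day 4 and of day 6 lay above every array of day 0. The log2 change was 0.69 ± 0.14 (adjusted p = 0.00242) at day 4 and 0.88 ± 0.14 (adjusted p = 6.10e-05) at day 6, and no difference between day 6 and day 4 was detected (0.19 ± 0.14, adjusted p = 0.349). The highest array of the gene, day 6 mouse 21, also held the highest summed marker signals of neutrophils, macrophages, fibroblasts, endothelium, skeletal muscle, squamous epithelium and adipocytes. The second probe set of Slc2a3 did not pass at day 4 (0.68, adjusted p = 0.0583).

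Slc2a12 had 117, 106, 74.9, 111 and 136 at day 0, and medians of 110.2 (83.2 to 144) at day 2, 181 (148 to 204) at day 4 and 183 (154 to 257) at day 6. Day 4 and day 6 each stood above day 0 on all arrays, with log2 changes of 0.66 ± 0.15 (adjusted p = 0.00522) and 0.75 ± 0.15 (adjusted p = 0.000601). Day 4 also stood above day 2 on all arrays (0.62 ± 0.15, adjusted p = 0.00952).

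Slc2a4 had 723, 694, 702, 526 and 766 at day 0, and medians of 800.2 (704 to 943) at day 2, 952 (712 to 1150.5) at day 4 and 759 (685 to 1040.5) at day 6. This gene encodes GLUT4, the insulin-responsive carrier of muscle and fat. Its arrays overlapped between the days, and the log2 change was 0.46 ± 0.12 (adjusted p = 0.0119) at day 4 and 0.24 ± 0.12 (adjusted p = 0.145) at day 6. A second, dimmer probe set changed by -0.06 at day 4, and the mean of both by 0.20 (adjusted p = 0.294), so the call rests on 1 probe set. On day 4 mouse 8, where the skeletal muscle markers summed to 1262, against a median of 32760.3 at day 4, Slc2a4 had 834. At day 4 its highest array was mouse 4, with 1150.5. That array also held the highest sums of the day for skeletal muscle (50147), smooth muscle (89726) and adipocyte markers (7279). The highest of day 6, mouse 3 (1040.5), held the highest smooth muscle sum of that day (74871). The part of muscle or fat RNA in these values was not tested.

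Slc2a10 had 521, 333, 433, 347 and 394 at day 0, and medians of 438 (330.3 to 555) at day 2, 315 (243 to 415) at day 4 and 251 (235 to 329.5) at day 6. This gene encodes GLUT10, and its arrays of day 6 all lay below those of day 0 (-0.56 ± 0.16, adjusted p = 0.00941). At day 6 Slc2a10 was lowest on mouse 3, whereas the summed colonocyte signal was lowest on mouse 21.

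Slc2a13 had 1000.2, 1131, 1251, 1114 and 1026 at day 0, and medians of 958 (841 to 1033) at day 2, 1132 (982 to 1199) at day 4 and 809.9 (696 to 974) at day 6. The product, HMIT, moves myo-inositol with protons. Every array of day 6 lay below every array of day 0 and of day 4. Its log2 change was -0.42 ± 0.08 (adjusted p = 0.000440) against day 0 and -0.45 ± 0.08 (adjusted p = 0.000254) against day 4. At day 6 Slc2a13 was lowest on mouse 7, and the summed colonocyte signal on mouse 21. The sodium-coupled myo-inositol carrier Slc5a3 had a log2 change of -0.50 ± 0.20 at day 6 and did not pass (adjusted p = 0.0533), whereas its other probe set was lower, at -0.79 ± 0.15 at day 4 (adjusted p = 0.000773) and -0.99 ± 0.15 at day 6 (adjusted p = 2.52e-05).

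The widely expressed glucose carrier Slc2a1 (GLUT1) had medians of 4206 (3258 to 6198) at day 6, against 3494 (2791 to 3657) at day 0. The log2 change of 0.35 ± 0.13 passed narrowly (adjusted p = 0.0491) and was lost when any 1 of 16 arrays was left out, with an adjusted p of up to 0.138 (without day 0 mouse 2). It was also lost when its probe sets were averaged (0.24, adjusted p = 0.232). The fructose carrier Slc2a5 (GLUT5) had medians of 201 (175 to 248) at day 2, against 104 (66.4 to 140.3) at day 0. Its arrays of day 2 all lay above those of day 0, as did those of 1.27% of all genes, and the log2 change of 0.85 ± 0.20 did not pass (adjusted p = 0.0756). At day 6 it was at -0.08 ± 0.20 (adjusted p = 0.783). Slc2a8 did not pass at any day. Of the other genes of the class, Slc2a2, Slc2a6, Slc5a2, Slc5a4a, Slc5a4b, Slc5a10 and Slc5a11 were too dim to be tested.

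**Figure D2:**
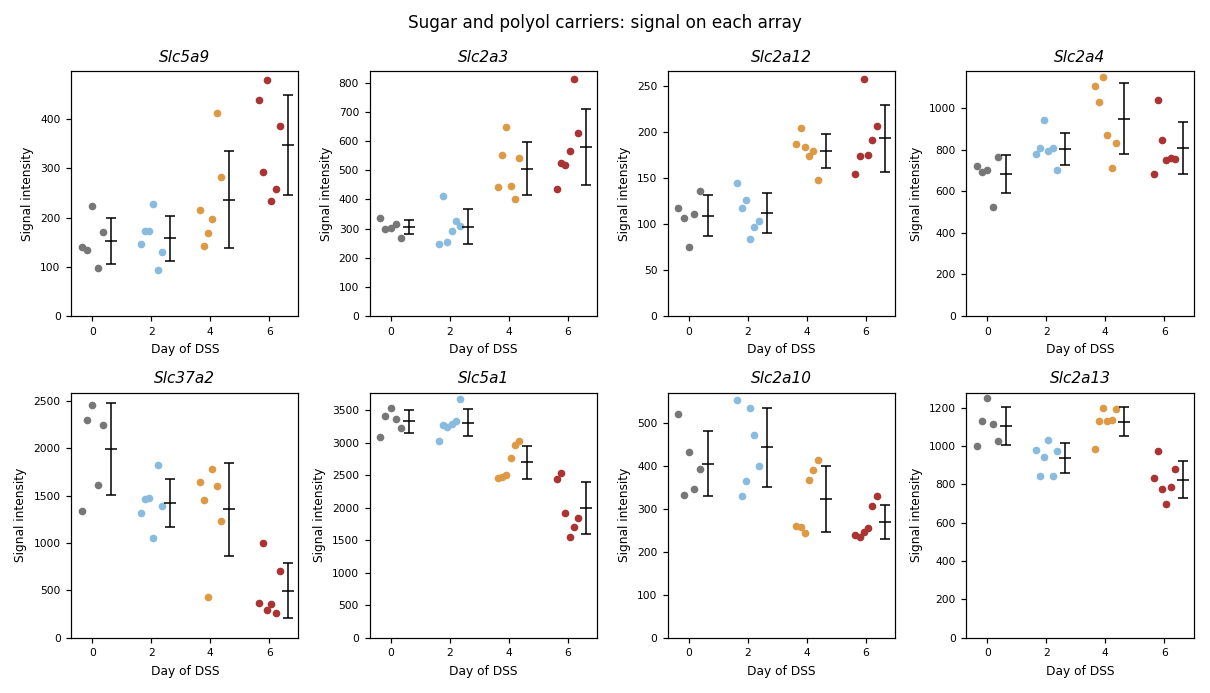
Signal intensity (linear axis from 0) of 8 sugar and polyol carriers on each array at days 0, 2, 4 and 6 of DSS, 1 point per mouse, with mean and SD beside the points. The upper row holds genes that passed as higher and the lower row genes that passed as lower. Slc37a2 has a single low array at day 4 (430.1) and 6 low arrays at day 6 (258 to 999), and the points of Slc2a3 and Slc2a12 step up between day 2 and day 4.

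Among acid carriers, the butyrate carriers Slc5a8 (SMCT1) and Slc16a1 (MCT1) were lower at day 6 and did not pass at day 4. Slc16a3 (MCT4), known for lactate export from glycolytic cells, was 1.69-fold of its day 0 level at day 6. Slc5a6, the sodium-dependent carrier of biotin and pantothenate, was 0.499-fold.

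Slc5a8 had 4969.8, 5909, 5604, 5914 and 5285 at day 0, and medians of 4937 (4413 to 5161) at day 2, 5862 (5052 to 6037) at day 4 and 2880.0 (1977 to 4471) at day 6. All arrays of day 6 lay below those of day 0 and of day 4. The log2 change was -0.89 ± 0.15 (adjusted p = 7.00e-05) against day 0 and -0.93 ± 0.14 (adjusted p = 5.43e-05) against day 4. At day 4 the gene was at 0.05 ± 0.15 (adjusted p = 0.862).

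Slc16a1 had 11909.6, 13247, 13171, 12505 and 13193 at day 0, and medians of 12483 (10921 to 12832) at day 2, 12162 (11367 to 13019.6) at day 4 and 9628 (7520.4 to 10065) at day 6. Day 6 stood below each earlier day on all arrays of this gene. Its lowest array of day 6, mouse 21, was also the lowest of that day in the summed colonocyte signal. The log2 change against day 0 was -0.49 ± 0.07 (adjusted p = 7.56e-06), or 0.711-fold. Against day 4 it was -0.42 ± 0.06 (adjusted p = 6.27e-05). Basigin (Bsg), the partner that carries Slc16a1 and Slc16a3 to the cell surface, changed by -0.27 ± 0.06 (adjusted p = 0.00189) at day 6, and embigin (Emb), a related partner, by 1.93 ± 0.27 (adjusted p = 7.95e-06).

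Slc16a3 had 123, 110.2, 244, 102 and 103 at day 0, and medians of 184 (125 to 272) at day 2, 124 (95.8 to 193) at day 4 and 232 (180.3 to 306) at day 6. One array of day 0, mouse 3, lay far above the other 4, and day 6 overlaps with day 0 through that array. The log2 change at day 6 was 0.76 ± 0.22 (adjusted p = 0.00928), and 0.73 ± 0.21 against day 4 (adjusted p = 0.0125).

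The remaining monocarboxylate carriers did not pass at day 4 or day 6. They are Slc16a7 (MCT2), at -0.47 ± 0.28 (adjusted p = 0.209) at day 6, Slc16a11, at -0.08 ± 0.21, and Slc16a13, at -0.30 ± 0.19. The retinal Slc16a8 and the kidney lactate carrier Slc5a12 were too dim to be tested.

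Among carriers of other small solutes, Slc5a6 had 280.0, 299.6, 321, 361 and 302 at day 0, and medians of 339 (272 to 432) at day 2, 395 (274 to 419) at day 4 and 163 (83.4 to 180.1) at day 6. All arrays of day 6 lay below all arrays of days 0, 2 and 4. It changed by -1.003 ± 0.16 (adjusted p = 3.99e-05) against day 0 and -1.201 ± 0.15 (adjusted p = 1.19e-05) against day 4. The lowest array of day 6, mouse 21, was also the lowest of that day in the summed colonocyte signal.

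Slc16a12 had 210.4, 190.3, 139, 88.7 and 180.0 at day 0, and medians of 142 (88.5 to 266) at day 2, 144 (112 to 219) at day 4 and 71.1 (30.6 to 133) at day 6. This creatine carrier was dim and variable, with overlap between the days. Its log2 change was -0.92 ± 0.28 (adjusted p = 0.0144) at day 6, and -0.04 ± 0.28 at day 4 (adjusted p = 0.930). The lowest array of day 6, mouse 1, was the highest of that day in the summed colonocyte signal.

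Slc16a5 had 1294, 984, 1051, 1031 and 1083 at day 0, and medians of 1049 (917 to 1242) at day 2, 723 (439 to 1036) at day 4 and 589.5 (414 to 782) at day 6. Slc16a5 (MCT6) was lower on all arrays of day 6 than on those of day 0, with a log2 change of -0.83 ± 0.17 (adjusted p = 0.000601). At day 4 it was at -0.58 ± 0.17 (adjusted p = 0.0224), a call that was lost without day 0 mouse 1 (adjusted p = 0.0631) or day 4 mouse 4. The lowest arrays of the gene, mouse 4 at day 4 and mouse 21 at day 6, were the lowest of their days in the summed colonocyte signal.

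Slc16a4 had 167, 159, 117, 193 and 246 at day 0, and medians of 186 (169.7 to 290.5) at day 2, 316 (271 to 373) at day 4 and 252 (164 to 299.6) at day 6. Every array of day 4 lay above all of day 0, and those of day 6 overlapped with them. On the log2 scale it changed by 0.82 ± 0.17 (adjusted p = 0.00178) at day 4 and 0.39 ± 0.17 (adjusted p = 0.0725) at day 6. Between day 6 and day 4 it was -0.43 ± 0.16 (adjusted p = 0.0526).

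Slc16a6 had 115, 58.0, 56.7, 100.2 and 50.1 at day 0, and medians of 83.3 (63.6 to 116) at day 2, 72.5 (60.5 to 109) at day 4 and 119.7 (108 to 145) at day 6. Day 0 spread widely and overlapped with day 6. The medians of the gene at days 0, 2 and 4 lay below all array medians of these days (97.3 to 118). At day 6 the array medians were 109 to 121. The gene thus passed the filter in part through day 6, where it was called higher. The log2 change was 0.66 ± 0.20 (adjusted p = 0.0134) at day 6, and 0.62 ± 0.19 (adjusted p = 0.0192) against day 4. Slc16a9 did not pass against day 0 with the probe set used (-0.35 ± 0.15, adjusted p = 0.0731), but was lower against day 4 (-0.59 ± 0.14, adjusted p = 0.00389), a call that ended when its probe sets were averaged (-0.31, adjusted p = 0.0790). Its 2 other probe sets did not pass against day 4 (-0.07 and -0.26) and were lower than at day 0, at -0.55 each (adjusted p = 0.0190 and 0.0184). The aromatic amino acid carrier Slc16a10 did not pass against day 0 (0.16 ± 0.15, adjusted p = 0.443) and was higher than at day 4 (0.49 ± 0.15, adjusted p = 0.0181).

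**Figure D3:**
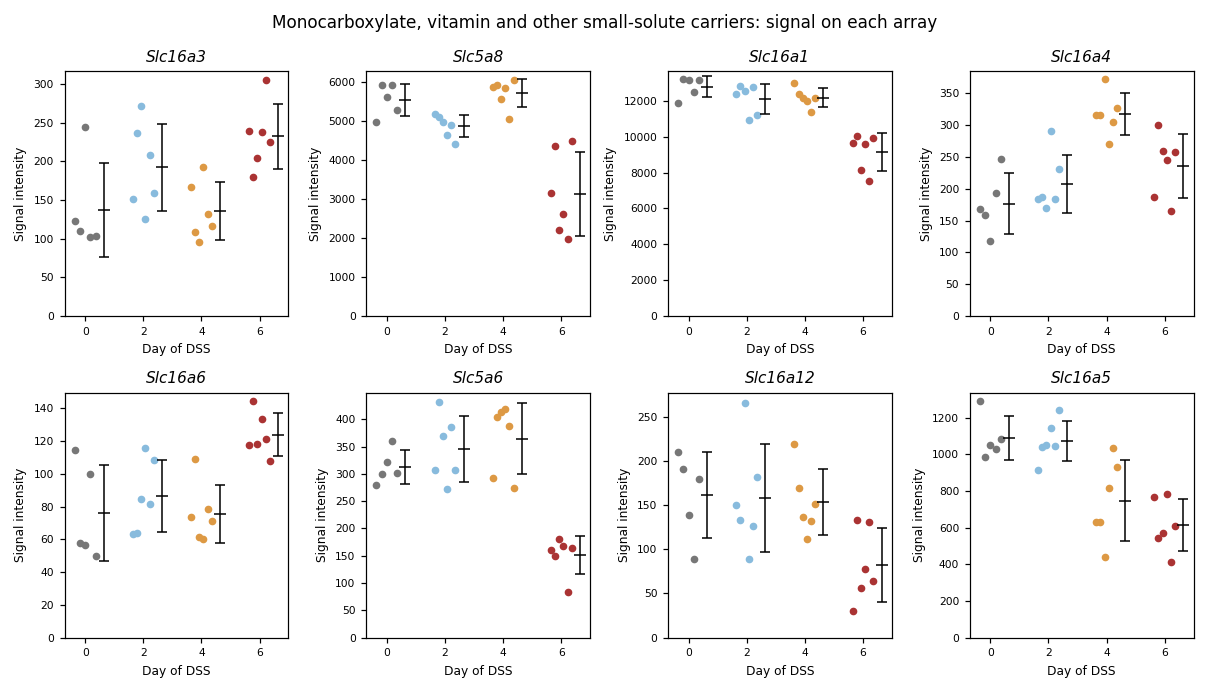
Signal intensity (linear axis from 0) of 8 carriers of monocarboxylates, vitamins and other small solutes on each array at days 0, 2, 4 and 6 of DSS, 1 point per mouse, with mean and SD beside the points. Slc5a8, Slc16a1 and Slc5a6 step down between day 4 and day 6, to 1977 to 4471, 7520.4 to 10065 and 83.4 to 180.1.

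Organic ion carriers of the Slc22 and Slco families take up drugs, bile acids, prostaglandins and carnitine, and most are known from liver and kidney. Of the 37 genes of this class 25 were too dim to be tested, among them Slc22a6, Slc22a8 and Slco1b2. Of the 12 measured, Slc22a17 and Slco3a1 were higher at day 6 and Slc22a23 was lower.

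Slc22a17 had 275, 298, 269.6, 305 and 168 at day 0, and medians of 392 (302 to 445) at day 2, 426 (368 to 532) at day 4 and 366 (294 to 421) at day 6. Slc22a17 encodes a receptor for lipocalin-2 (Lcn2), an iron-scavenging protein of neutrophils and inflamed epithelium. Arrays of day 4 all lay above day 0, and day 0 mouse 5 lay far below the other 4 arrays of its day. Its change was 0.70 ± 0.14 (adjusted p = 0.00136) at day 4 and 0.46 ± 0.14 (adjusted p = 0.0121) at day 6, the last of which was lost without day 0 mouse 5 (adjusted p = 0.0529). Lcn2 itself had medians of 1353 (786 to 3276) at day 6, against 87.5 (44.2 to 129) at day 0, a log2 change of 3.79 ± 0.36 (adjusted p = 7.40e-08).

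Slco3a1 had 356, 450.1, 359, 406 and 319 at day 0, and medians of 492 (386 to 543) at day 2, 456 (372 to 521) at day 4 and 566 (487 to 775) at day 6. All arrays of day 6 lay above those of day 0, with a log2 change of 0.59 ± 0.12 (adjusted p = 0.000383). At day 4 the probe set used did not pass (0.25 ± 0.12, adjusted p = 0.144), whereas 2 other probe sets of the gene did, at 0.66 ± 0.15 (adjusted p = 0.00356) and 0.79 ± 0.18 (adjusted p = 0.00431).

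Slc22a23 had 2318, 2451, 2942, 2469.5 and 2650.3 at day 0, and medians of 2614 (2489 to 2827) at day 2, 2128 (1597 to 2301) at day 4 and 1927 (1547 to 2322) at day 6. Slc22a23 was below day 0 on all arrays of day 4 and overlapped with it at day 6. It changed by -0.33 ± 0.10 (adjusted p = 0.0251) at day 4 and -0.39 ± 0.10 (adjusted p = 0.00415) at day 6. The day 4 call was lost when any 1 of 4 arrays was left out (day 0 mouse 3 or 5, day 4 mouse 3 or 4), with adjusted p up to 0.0793. Its lowest arrays, mouse 4 at day 4 and mouse 21 at day 6, were also the lowest of their days in the summed colonocyte signal.

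The prostaglandin carrier Slco2a1 did not pass against day 0 at day 6 (0.22 ± 0.11, adjusted p = 0.130) and was higher than at day 4, on all arrays (0.36 ± 0.11, adjusted p = 0.0175). Another probe set of it was lower at day 4 than at day 0 (-0.75 ± 0.18, adjusted p = 0.00590). The carnitine carrier Slc22a5 (OCTN2) was at -0.01 ± 0.09 (adjusted p = 0.933) at day 6, and its other probe set at -0.39 ± 0.13 (adjusted p = 0.0222). Slc22a18 was at -0.31 ± 0.15 (adjusted p = 0.107), and its other probe set at -0.55 ± 0.14 (adjusted p = 0.00386). The other probe sets of Slc22a5 and Slc22a18 were already lower at day 4 against day 0, at -0.54 (adjusted p = 0.00416) and -0.59 (adjusted p = 0.00449). The probe sets used did not pass at day 4. The probe sets of these 3 genes thus differ in call. For Slco2b1, which did not pass at day 6 (0.14 ± 0.14, adjusted p = 0.466), 1 other probe set was higher at day 4 and another at day 6 (0.92 ± 0.33, adjusted p = 0.0396). The urate carriers Slc2a9 and Slc22a12 did not pass (0.18 ± 0.18 and 0.41 ± 0.29 at day 6), nor did Slc22a15 (-0.36 ± 0.17), Slc22a21 (-0.19 ± 0.15) and Slco4a1 (-0.23 ± 0.26).

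Of the nucleoside carriers, the adenosine carrier Slc29a1 (ENT1) passed at day 6. Slc29a1 had 910.3, 1127, 1177, 1179 and 907 at day 0, and medians of 958 (814 to 1129) at day 2, 934 (834 to 1382) at day 4 and 874 (551 to 919) at day 6. The days overlap, and day 6 mouse 1 lay far below the other 5 arrays of its day. That array had the highest summed colonocyte signal of day 6 (177899). The change was -0.36 ± 0.13 (adjusted p = 0.0420), and adjusted p was 0.108 without day 6 mouse 1. The call was also lost without day 0 mouse 2, 3 or 4. Slc28a3, a sodium-coupled nucleoside carrier, had -0.47 ± 0.24 (adjusted p = 0.143) at day 6. Slc29a3 (-0.03 ± 0.09) and Slc29a4 (0.21 ± 0.12) did not pass, and Slc29a2 was too dim to be tested.

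**Figure D4:**
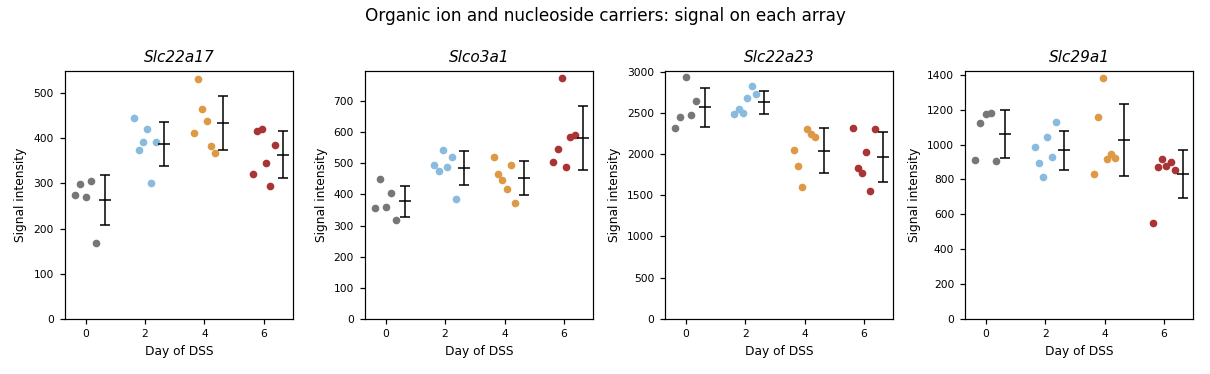
Signal intensity (linear axis from 0) of 3 organic ion carriers and the nucleoside carrier Slc29a1 on each array at days 0, 2, 4 and 6 of DSS, 1 point per mouse, with mean and SD beside the points. Single low arrays stand apart for Slc22a17 at day 0 (168) and for Slc29a1 at day 6 (551).

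Zinc importers of the Slc39 family were called in both directions. At day 6, Slc39a6, Slc39a10, Slc39a14 and Slc39a1 were higher and Slc39a5, Slc39a11 and Slc39a9 lower, and Slc30a6 was the single Slc30 gene that passed against day 0. Slc39a4 (ZIP4), the importer of the gut's apical membrane, was 0.664-fold of its day 0 level at day 4. Metallothioneins, which bind zinc and are induced by it through the factor MTF1, were higher at day 4 and day 6.

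The promoters of 5 genes of zinc binding or transport are printed. They are the metallothioneins Mt1 and Mt2 that were higher, and the exporter Slc30a1, a known target of MTF1 that did not pass. The others are the importers Slc39a10 and Slc39a5, which moved in opposite directions. No zinc level or MTF1 activity was measured. The sequences are those of RefSeq on build GRCm38.p6, from 250 bases before to 50 bases after the start site, on the gene's strand. Capitals mark the core of the metal response element, TGCACNC or TGCGCNC, searched on both strands. Mt1 and these 5 promoters were chosen after their values were seen.
Mt2: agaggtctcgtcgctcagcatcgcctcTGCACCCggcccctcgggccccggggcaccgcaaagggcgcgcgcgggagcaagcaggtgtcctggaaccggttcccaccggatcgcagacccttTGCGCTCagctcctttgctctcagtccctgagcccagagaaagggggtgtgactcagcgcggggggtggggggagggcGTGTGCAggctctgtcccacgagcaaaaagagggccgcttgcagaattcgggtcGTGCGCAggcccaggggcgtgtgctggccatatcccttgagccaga
Mt1: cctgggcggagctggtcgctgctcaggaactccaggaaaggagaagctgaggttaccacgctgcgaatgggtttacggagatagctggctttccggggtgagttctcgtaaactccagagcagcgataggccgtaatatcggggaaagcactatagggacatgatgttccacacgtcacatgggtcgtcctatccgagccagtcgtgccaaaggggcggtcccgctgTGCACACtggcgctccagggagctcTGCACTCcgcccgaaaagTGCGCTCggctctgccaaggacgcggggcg
Slc30a1: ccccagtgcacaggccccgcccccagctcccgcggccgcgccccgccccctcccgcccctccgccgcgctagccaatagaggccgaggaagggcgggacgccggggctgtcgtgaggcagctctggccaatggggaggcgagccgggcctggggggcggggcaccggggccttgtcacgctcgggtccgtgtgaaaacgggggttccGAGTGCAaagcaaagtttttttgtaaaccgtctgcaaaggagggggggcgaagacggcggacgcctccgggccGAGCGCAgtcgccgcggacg
Slc39a10: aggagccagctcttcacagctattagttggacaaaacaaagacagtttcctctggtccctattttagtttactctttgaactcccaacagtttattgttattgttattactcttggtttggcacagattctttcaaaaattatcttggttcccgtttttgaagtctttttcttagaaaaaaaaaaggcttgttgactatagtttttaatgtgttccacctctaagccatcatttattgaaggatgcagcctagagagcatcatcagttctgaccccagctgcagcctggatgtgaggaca
Slc39a5: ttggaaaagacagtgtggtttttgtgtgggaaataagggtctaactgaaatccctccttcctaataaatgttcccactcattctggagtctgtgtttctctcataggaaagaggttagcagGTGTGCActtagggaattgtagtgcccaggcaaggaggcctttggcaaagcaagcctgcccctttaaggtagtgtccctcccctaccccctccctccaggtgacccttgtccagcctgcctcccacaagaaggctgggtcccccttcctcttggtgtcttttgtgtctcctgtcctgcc
They lie at chr8:94172368-94172667, plus strand (Mt2), chr8:94178839-94179138, plus strand (Mt1), chr1:191906531-191906830, plus strand (Slc30a1), chr1:46925727-46926026, minus strand (Slc39a10) and chr10:128401175-128401474, minus strand (Slc39a5). The core occurred 4 times for Mt2, 3 times for Mt1, 2 times for Slc30a1, 0 times for Slc39a10 and 1 time for Slc39a5. Slc39a10 and Slc39a5 have 2 promoters each in the table, and the one not printed held it 0 times in both. Of 32851 promoters of the same length, 25.7% held it at least 1 time. Of the 65 measured genes 52 were matched to the table, with 71 promoters, and 28 of these held it. Of the 22 promoters of zinc and other metal carriers, for 17 genes, 11 held it. Such a match is a description of the letters and not a site.

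Slc39a6 had 441, 505, 401, 414 and 435 at day 0, and medians of 432 (373 to 483) at day 2, 743 (628 to 857) at day 4 and 812 (609 to 1205) at day 6. All arrays of day 4 and of day 6 lay above those of day 0, and those of day 4 above those of day 2. The log2 change of this importer (ZIP6) was 0.73 ± 0.13 (adjusted p = 0.000628) at day 4 and 0.93 ± 0.13 (adjusted p = 7.43e-06) at day 6. A second probe set changed by 0.14 at day 4 and 0.19 at day 6 and did not pass.

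Slc39a10 had 671, 557, 614, 641 and 529.8 at day 0, and medians of 648 (473 to 910.3) at day 2, 673 (585 to 840.3) at day 4 and 929 (823 to 1226) at day 6. ZIP10, the closest relative of ZIP6, was higher on all arrays of day 6 than of day 0 (0.67 ± 0.14, adjusted p = 0.000565) and was at 0.17 ± 0.14 (adjusted p = 0.419) at day 4. Against day 4, day 6 was higher by 0.50 ± 0.13 (adjusted p = 0.00721). A second probe set was also higher than at day 4 (0.59 ± 0.15, adjusted p = 0.00715), but did not pass against day 0, at -0.32 ± 0.16 (adjusted p = 0.163) at day 4 and 0.27 ± 0.16 (adjusted p = 0.201) at day 6.

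Slc39a14 had 783, 796, 893, 982 and 812 at day 0, and medians of 895 (812 to 1031) at day 2, 968 (799 to 1018) at day 4 and 1196 (937 to 1799.9) at day 6. ZIP14, which also takes up iron and manganese, had 1 array of day 6, mouse 3, within the day 0 range. Its log2 change was 0.12 ± 0.12 (adjusted p = 0.527) at day 4 and 0.57 ± 0.12 (adjusted p = 0.00105) at day 6. A second probe set did not pass at day 6 (0.33 ± 0.19, adjusted p = 0.201). The highest array of the gene, day 6 mouse 21, was also the highest for the 7 summed marker signals named beside Slc2a3. Its lowest of day 6, mouse 3, was the lowest of that day for the neutrophil, macrophage and fibroblast sums.

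Slc39a1 had 848, 893, 1243, 978 and 899 at day 0, and medians of 974 (779 to 1323) at day 2, 1192 (1121 to 1429) at day 4 and 1312 (1164 to 1444) at day 6. ZIP1 overlapped with day 0 through day 0 mouse 3. It passed at day 6 (0.43 ± 0.12, adjusted p = 0.00936) and not at day 4 (0.33 ± 0.12, adjusted p = 0.0639).

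Slc39a4 had 4256, 3810.2, 3856, 3287 and 4435 at day 0, and medians of 3416 (2875 to 3987) at day 2, 2659 (1792 to 3199) at day 4 and 3179.9 (2567 to 4036) at day 6. Every array of day 4 lay below those of day 0, and those of day 6 overlapped with both. On the log2 scale ZIP4 changed by -0.59 ± 0.13 (adjusted p = 0.00450) at day 4 and -0.29 ± 0.13 (adjusted p = 0.107) at day 6, with 0.31 ± 0.13 (adjusted p = 0.0879) between day 6 and day 4. The lowest array of day 4, mouse 4, was also the lowest in the summed colonocyte signal, with 132011.

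Slc39a5 had 1273, 1325, 1374, 1093 and 1552 at day 0, and medians of 1339 (893 to 1832) at day 2, 983 (693 to 999) at day 4 and 878 (556 to 1231) at day 6. ZIP5, an importer of the basolateral membrane of gut and pancreas, was below day 0 on all arrays of day 4 and overlapped with it at day 6. Its log2 change was -0.52 ± 0.16 (adjusted p = 0.0302) at day 4 and -0.62 ± 0.16 (adjusted p = 0.00478) at day 6. With the hybridization control level as a covariate these were 0.017 and 0.076. The day 4 call was lost when any 1 of 5 arrays was left out (mouse 2, 3 or 5 of day 0, mouse 3 or 6 of day 4), with adjusted p up to 0.0831. The highest array of day 6 was mouse 1, with 1231, and it was also the array of that day with the highest pancreatic signal. On day 2 mouse 6, whose pancreatic signal was higher still, Slc39a5 had 1302, within the range of the other arrays of that day.

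Slc39a11 had 2667, 2938, 2351, 2459 and 2715 at day 0, and medians of 3052 (2508 to 3394) at day 2, 2849.6 (2486 to 3201) at day 4 and 2125 (1969.5 to 2388) at day 6. ZIP11 was lower on all arrays of day 6 than of day 4 (-0.38 ± 0.07, adjusted p = 0.000595), and lower than at day 0 with overlap (-0.28 ± 0.08, adjusted p = 0.00749). Slc39a9 was lower at day 6 as well (-0.20 ± 0.07, adjusted p = 0.0330), a call that was lost when mouse 3, 4 or 5 of day 0 or mouse 4 or 21 of day 6 was left out, with adjusted p up to 0.0954.

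Slc30a6 had 1122, 1378, 1405, 1398 and 1319 at day 0, and medians of 1310.4 (1252 to 1385) at day 2, 1236 (1103 to 1340.3) at day 4 and 1103 (1041 to 1244) at day 6. ZnT6, which pairs with ZnT5 (Slc30a5) to load zinc into secreted enzymes, was lower at day 6 with overlap (-0.23 ± 0.07, adjusted p = 0.00760). Its partner Slc30a5 was at -0.05 ± 0.06 (adjusted p = 0.615). Slc30a9 was higher at day 4 on all arrays (0.29 ± 0.07, adjusted p = 0.00753) and was at 0.13 ± 0.07 (adjusted p = 0.184) at day 6.

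The plasma membrane exporter Slc30a1 (ZnT1) had medians of 1531 (1337 to 1756) at day 0, 1497 (1205 to 1556) at day 4 and 1612 (1113 to 1796) at day 6. Neither day differed from day 0 beyond the spread (-0.08 ± 0.11, adjusted p = 0.671 at day 4, and -0.02 ± 0.11, adjusted p = 0.905 at day 6). The manganese exporter Slc30a10 varied widely, from 77.8 to 442 at day 6 and from 134 to 439.9 at day 0 (-0.35 ± 0.39, adjusted p = 0.530). The endoplasmic reticulum carrier Slc39a7 (ZIP7) was at -0.04 ± 0.08 (adjusted p = 0.710). Slc39a8 (ZIP8), a close relative of ZIP14, was at -0.25 ± 0.17 (adjusted p = 0.289), whereas its other probe set was lower, at -0.69 ± 0.21 (adjusted p = 0.0172). Slc30a3 (-0.14 ± 0.30), Slc30a4 (-0.13 ± 0.10), Slc30a7 (-0.05 ± 0.09), Slc39a3 (-0.01 ± 0.15) and Slc39a13 (0.14 ± 0.13) did not pass against day 0. Slc30a2, Slc30a8, Slc39a2 and Slc39a12 were too dim to be tested.

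The metallothionein Mt1 had medians of 6194 (5493 to 6717) at day 0, 10702 (9100.2 to 13453) at day 4 and 10827 (5972 to 16710.4) at day 6. Its log2 change was 0.84 ± 0.17 (adjusted p = 0.00184) at day 4 and 0.77 ± 0.17 (adjusted p = 0.00117) at day 6. For Mt2 the medians were 3668 (2744 to 5123) at day 0, 6372 (5988 to 7561) at day 4 and 8152 (4805 to 13277) at day 6. Its changes were 0.81 ± 0.20 (adjusted p = 0.00854) at day 4 and 1.18 ± 0.20 (adjusted p = 9.59e-05) at day 6. Mt1 and Mt2 stood above day 0 on all arrays of day 4, and overlapped with it at day 6. Mtf1, the gene of the factor itself, did not pass at day 6 (0.00 ± 0.10, adjusted p = 0.984).

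**Figure D5:**
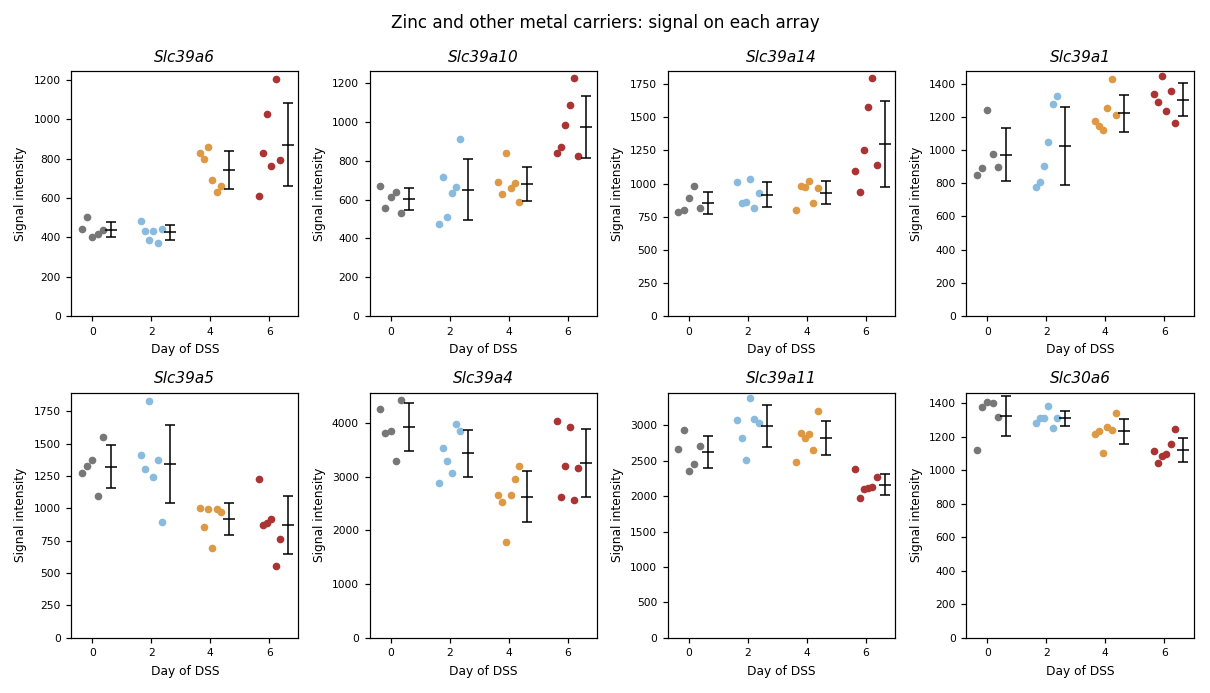
Signal intensity (linear axis from 0) of 8 zinc and other metal carriers on each array at days 0, 2, 4 and 6 of DSS, 1 point per mouse, with mean and SD beside the points. The upper row holds genes that passed as higher and the lower row genes that passed as lower. Slc39a6 separates between day 2 and day 4, Slc39a10 steps up between day 4 and day 6 with overlap, and Slc39a4 is lowest at day 4.

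Genes that work beside the carriers were read from 5 lists, chosen with earlier results of these data known. Over all genes, 18.1% were higher and 14.3% lower at day 6. Of 19 measured genes of glucose use, 4 were higher and 4 lower at day 6, with a median log2 change of 0.02. The glycolysis activator Pfkfb3 (1.99 ± 0.21, adjusted p = 2.42e-07) and the hexokinases Hk3 (1.17 ± 0.20, adjusted p = 8.48e-05) and Hk2 (0.58 ± 0.15, adjusted p = 0.00361) were higher. These were named by size of change, and the lowest log2 change of the list was -0.52. Of 12 genes of short-chain acid use and sensing, 2 were higher and 8 lower (median -0.30). The butyrate and niacin receptor Hcar2 was higher at day 6, with a median of 186 (93.1 to 243) at day 6, against 23.4 (6.94 to 57.9) at day 0 (2.26 ± 0.44, adjusted p = 0.000383). On every array of day 0 Hcar2 lay below the median of that array (98.1 to 113), so it passed the filter through later days. Its lowest and highest arrays of day 6, mouse 3 and mouse 21, were also those of the neutrophil and macrophage sums. The acyl-CoA synthetase Acsm3 was lower, with 976 (688 to 1929.5) at day 6, against 2844 (2709.6 to 3236) at day 0 (-1.37 ± 0.18, adjusted p = 3.36e-06). The other genes that were lower were Ffar2, a receptor of short-chain acids, Bsg, and the oxidation and ketone enzymes Acads, Acat1, Bdh1, Hadh and Oxct1.

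Of 12 genes of zinc and iron binding and transfer, 4 were higher (Lcn2, Steap4, Mt2 and Mt1) and 1 was lower, the heme and folate carrier Slc46a1 (-1.17 ± 0.27, adjusted p = 0.00186), with a median of 0.02. Steap4, a metalloreductase, was at 1.59 ± 0.34 (adjusted p = 0.000827). Of 10 genes of nucleoside use, 4 were higher and 2 lower (median 0.06). Uridine phosphorylase Upp1 (1.14 ± 0.34, adjusted p = 0.0130) and the ectonucleotidase Entpd1 (0.71 ± 0.15, adjusted p = 0.000639) were higher, and Nt5e, which makes adenosine outside the cell, was lower (-0.63 ± 0.21, adjusted p = 0.0241). Of 12 genes of organic ion conjugation and efflux, 2 were higher and 5 lower (median -0.32). The prostaglandin synthase Ptgs2 was higher (1.57 ± 0.33, adjusted p = 0.000828), and the sulfotransferase Sult1a1 (-1.02 ± 0.16, adjusted p = 3.45e-05) and the prostaglandin-degrading Hpgd (-0.84 ± 0.10, adjusted p = 2.02e-06) were lower.

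Successive days placed the changes in time. Between day 4 and day 2, 5 carrier genes were higher (9.44% of all genes) and 6 were lower (4.09% of all genes). The higher ones were Slc39a6, Slc2a3, Slc2a12, Slc16a4 and Slc2a13, and the lower ones Slc16a5, Slc39a5, Slc39a4, Slc37a1, Slc22a23 and Slc5a1. On non-overlapping arrays 2 lay above and 3 below (4.2% and 1.08% of all genes). Without day 4 mouse 4 the numbers called were 3 and 2, and without day 4 mouse 3 the lower count was also 2. The lower count was 3 without day 4 mouse 1, or without mouse 7, 17 or 52 of day 2. Of these 11 calls, those of Slc16a4, Slc16a5, Slc2a13, Slc39a4, Slc39a5 and Slc5a1 were lost under at least 1 such omission. Averaging the 2 probe sets of Slc5a1 also ended its call (adjusted p = 0.0874). Between these days 7 of 12 colonocyte markers were lower, and all 4 measured enteric neuron markers were higher. Between day 6 and day 4, 8 were higher (12.3%, against 9.09% of all genes) and 10 were lower (15.4%, against 13.7% of all genes). Slc37a2, Slc5a6, Slc5a8, Slc16a12, Slc16a9, Slc2a13, Slc5a1, Slc16a1, Slc39a11 and Slc30a7 were lower, and Slc16a3, Slc16a6, Slc39a10, Slc16a10, Slc39a14, Slc2a1, Slco2a1 and Slco3a1 were higher. The calls of Slc16a12, Slc2a1, Slc30a7, Slco2a1 and Slco3a1 were each lost when 1 of several arrays of these days was left out. On the mean of the probe sets of a gene, those of Slc16a9 (adjusted p = 0.0790), Slco3a1 (0.18, adjusted p = 0.263) and Slc30a7 (-0.07, adjusted p = 0.448) were lost as well, and the other probe set of Slc30a7 had the opposite sign (0.15). Arrays did not overlap for 1 gene above and 6 below (3.13% and 4.5% of all genes). With the hybridization control level as a covariate none of the day 4 over day 2 calls was kept, whereas the day 6 over day 4 change of Slc5a8 stayed at -0.93 (adjusted p = 0.000190) and that of Slc5a6 at -1.16 (adjusted p = 4.68e-05).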

How the data were processed

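RNA of 23 mouse colons was measured on 1 array each. The authors deposited linear signal intensities, 1 per probe set, made with MAS5 per the submitters' processing notes, which give no version. With 2% trimmed from each end, the mean was equal on all arrays (highest over lowest 1.00), so no further normalization was applied. Precision is limited by how many arrays there are. Of 45101 probe sets, 64 controls were left out. The platform annotation gave 34945 probe sets 1 symbol, 932 several and 9160 none. A probe set was kept if it lay above the 50th percentile of its own array on at least 5 arrays, and the kept probe set with the highest mean stood for its gene, which left 12463 genes. No level is compared between genes.

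Signals were analysed as log2(signal + 16), and the 4 days were compared in 1 fit with limma 3.58.1 (lmFit, then eBayes with a trend; R 4.3.3), two-sided, with Benjamini-Hochberg adjustment over all 12463 genes and a threshold of 0.05. The fit was tested on simulated data. The members, substrate classes, partner and marker lists were chosen with earlier results of these data known. Values on every array are given for members that passed at day 4 or day 6 against day 0, up to 4 in each direction per class by size of change. Up to 3 partner genes per list that passed at day 6 are named with values, with others marked or named without values. Mt1, Bsg, Emb, Mtf1, Slc46a1 and the printed promoters were chosen after their values were seen. Promoters came from RefSeq by gene symbol. The other probe sets of a gene were fitted in the same way over all kept probe sets.

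Mouse numbers recur between days. Deviations of the 17 pairs with the same number correlated from -0.16 to 0.70, with a median of 0.05 and 3 pairs over 0.1. The 181 pairs with other numbers correlated from -0.50 to 0.38, with a median of 0.003 and 36 over 0.1. The highest pair with the same number thus lay above all of these. The cohorts are separate, so the numbers were not used as pairs. The alternatives were other pseudocounts, no filter, quantile normalization, median centring, the mean of the probe sets of a gene, a replicate block, the hybridization control level as a covariate, leaving out 4 arrays that stand apart in RNA of neighbouring tissue, and leaving out each array. Red cell markers and some marker and partner genes had no probe set that passed and were not analysed here.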

Additional observations from a re-analysis of the deposited data

Results flagged for a closer look

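For the 28 genes shown with values, each day was searched for an array far from the others of its day (Dixon's criterion at 95%). It marked 8 of 112 sets of arrays, and chance marks about 1 in 20. Slc16a3 had 244 on day 0 mouse 3, against 102 to 123 on the other arrays of that day. Slc2a4 had 526 on day 0 mouse 4, where the others held 694 to 766, and Slc22a17 had 168 on day 0 mouse 5, with the others at 269.6 to 305. Slc30a6 had 1122 on day 0 mouse 1, and 1319 to 1405 elsewhere at that day. At day 4, Slc37a2 had 430.1 on mouse 4, against 1231 to 1779.9, and Slc2a13 had 982 on mouse 1, against 1129 to 1199. At day 6, Slc29a1 had 551 on mouse 1, against 854 to 919, and Slc5a6 had 83.4 on mouse 21, against 150.4 to 180.1.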

How the results depend on the processing

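Pseudocounts of 1 and 64, no filter, quantile normalization, median centring, the mean of the probe sets and leaving out 4 arrays with unusual neighbouring tissue RNA kept all counts of called carrier genes within 1.5 times. The covariate for the hybridization controls, which move with the day, did not: it gave 0 higher and 0 lower at day 4 against day 0, 0 higher and 4 lower at day 6 against day 0, and 0 higher and 0 lower at day 4 against day 2. It also turned the sign of Slc39a5, to 0.017 at day 4 (adjusted p = 0.981) and 0.076 at day 6 (adjusted p = 0.897) against day 0. With the replicate block, the lower count at day 6 against day 0 was 9, the higher and lower counts at day 4 against day 2 were 1 and 1, and the higher count at day 6 against day 4 was 4. That block ended 13 of the 29 calls at day 6 against day 0. The mouse numbers were not taken to pair the animals, because the cohorts are separate. Leaving out 1 array gave 0 to 0 in both directions at day 2 against day 0, 7 to 8 higher and 3 to 6 lower at day 4 against day 0, and 11 to 13 higher and 15 to 19 lower at day 6 against day 0. It gave 3 to 6 higher and 2 to 7 lower at day 4 against day 2, and 6 to 9 higher and 9 to 13 lower at day 6 against day 4. The count of 3 lower at day 4 against day 0 came when day 0 mouse 3, or mouse 3 or 4 of day 4, was left out. Of the 29 calls at day 6 against day 0, 23 passed without any 1 array, and 3 (Slc37a2, Slc5a1 and Slc5a8) passed under all settings run. Of the 13 calls at day 4 against day 0, 9 passed without any 1 array and 0 passed under all settings. The cause of these changes was not tested. Of 33 pairs of a used and another probe set, 12 had the used one called at day 6 against day 0. All 12 had the same sign and 6 were called in both. At day 4 against day 0, 5 of 6 such pairs had the same sign and 1 was called in both. At day 4 against day 2 it was 3 and 0 of 3, and at day 6 against day 4, 12 and 4 of 13. The number of arrays and the dimness of genes such as Slc16a6 and Slc16a12 limit what could be detected.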
